A study of Mus musculus with 15 samples.

Results

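The AP-1 genes are described here in eyes of newborn, 3-day-old and adult mice of an Egr1 knockout study. The 8 genes were chosen by symbol: Fos, Fosb, Fosl1 and Fosl2 of the Fos family, Jun, Junb and Jund of the Jun family, and Atf3. They are 8 of 20418 gene symbols in the deposited tables. Each had 1 RefSeq transcript there, and all 8 passed the filter on low counts in every comparison. The study sequenced poly(A) RNA of whole eyes with their eyelids from BALB/c mice, to follow the part that Egr1, an immediate-early zinc finger factor, has in eyelid development. Its 15 libraries fall into 7 groups. Newborn eyes came from wild-type (2 libraries) and Egr1-/- mice (2 libraries), and adult eyes from wild-type (1 library) and Egr1-/- mice (2 libraries). At day 3 each library was 1 eye: both closed eyes of the Egr1+/- mouse E28, the closed and the open eye of the Egr1-/- mice E24 and E29, and both open eyes of the Egr1-/- mouse E32. The 4 open eyes therefore came from 3 mice. The knockout line came from C57BL/6 and was taken onto BALB/c by 5 backcross generations in an initial round and 4 in another, so that the labelled knockouts may still carry donor-strain sequence. Day 3 holds no wild type. No animals are named in the newborn and adult labels, so their replicates may not be separate mice. The p-values measure only the spread between these libraries, which may be technical.

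AP-1 is a family of dimers of basic leucine zipper proteins that bind DNA at short palindromes. Jun proteins pair with each other or with Fos proteins, Fos proteins need a Jun partner, and Atf3, a stress-induced member of the ATF group, pairs with Jun proteins as well. Fos, Fosb, Junb and Atf3 are known as immediate-early genes that growth factors, wounding and stress switch on within minutes, Fosl1 and Fosl2 follow later and stay on longer, and Jund is expressed steadily in most tissues. In mouse epidermis Jun is known to be needed for the eyelid margin to close before birth, and Fos, Fosl1, Fosl2, Jun and Junb act in the renewal, differentiation and wound response of keratinocytes.

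RefSeq promoter windows from 250 bases before to 50 bases after the annotated start (GRCm38.p6, a later build than the mm8 of the submitters' notes) were matched by symbol for 7 of the 8 genes. The 4 shown belong to the genes that rose most in newborn eyes, and each is written 5′ to 3′ on the strand of its gene. Fos lies at chr12:85473640-85473939 (plus strand), Fosb at chr7:19309996-19310295 (minus), Fosl2 at chr5:32136222-32136521 (plus) and Junb at chr8:84978699-84978998 (minus). Capitals mark the cyclic AMP response element core TGACGT in Fos and the TATA box letters TATAAA in Fos and Junb, in Junb at the annotated start itself. They also mark the Egr1 element GCGNGGGCG, where N is any base, in Fosb and Fosl2.
Fos: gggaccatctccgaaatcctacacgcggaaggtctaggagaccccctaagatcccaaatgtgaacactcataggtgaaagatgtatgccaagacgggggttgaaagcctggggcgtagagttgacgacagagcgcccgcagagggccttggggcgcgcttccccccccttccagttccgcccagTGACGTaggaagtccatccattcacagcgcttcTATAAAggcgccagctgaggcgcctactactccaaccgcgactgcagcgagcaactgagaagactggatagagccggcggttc
Fosb: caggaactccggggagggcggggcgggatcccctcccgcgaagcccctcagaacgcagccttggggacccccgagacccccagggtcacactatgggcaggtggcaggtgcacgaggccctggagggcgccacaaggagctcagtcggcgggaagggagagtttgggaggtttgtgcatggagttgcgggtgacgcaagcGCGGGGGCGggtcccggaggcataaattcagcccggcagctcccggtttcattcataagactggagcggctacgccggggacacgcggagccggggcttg
Fosl2: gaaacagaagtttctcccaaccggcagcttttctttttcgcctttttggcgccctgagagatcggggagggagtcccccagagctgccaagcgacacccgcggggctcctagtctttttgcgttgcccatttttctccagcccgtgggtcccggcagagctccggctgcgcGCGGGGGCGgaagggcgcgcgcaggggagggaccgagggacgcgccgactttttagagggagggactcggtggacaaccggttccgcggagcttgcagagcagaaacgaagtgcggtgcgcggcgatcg
Junb: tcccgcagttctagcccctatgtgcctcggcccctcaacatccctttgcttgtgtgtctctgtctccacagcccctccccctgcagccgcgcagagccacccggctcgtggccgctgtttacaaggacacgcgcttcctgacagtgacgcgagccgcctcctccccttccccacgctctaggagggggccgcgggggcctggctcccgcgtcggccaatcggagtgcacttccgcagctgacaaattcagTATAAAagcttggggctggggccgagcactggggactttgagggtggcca

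Motifs were searched on both strands. The Egr1 element stood at -50 to -42 from the start in Fosb and at -79 to -71 in Fosl2, was found in no other of the 7 windows, and is present in 5.55% of 32851 promoters of this length. In both genes it overlapped a GC box (GGGCGG), a motif in 35.7% of promoters. TGACGT (7.51% of promoters) stood at -66 to -61 in Fos and, read on the opposite strand, at -8 to -3 in Atf3. The element TGACATCA, through which Jun is known to act on its own gene, stood at -45 to -38 in Jun and in 3.62% of promoters. TATAAA (13.6% of promoters) stood at -33 to -28 in Fos and at 1 to 6 in Junb. The full cyclic AMP response element TGACGTCA (1.79%), the phorbol ester response element TGACTCA (5.2%) and the CArG box of serum response factor (1.63%) were not among the letters of any of the 7 windows. Sequence more than 250 bases before the start was not searched, so such elements may lie further upstream. These matches are descriptions of sequence, not binding sites.

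Transcripts held 20334849 to 43907093 reads per library. Reads of Egr1 itself went against the genotype labels: they came to 47.0 and 60.8 CPM in newborn wild types and to 214 and 273 CPM in newborn eyes labelled knockout, and to 33.2 CPM in the adult wild type against 255 and 185 CPM. At day 3 Egr1 came to 98.95 and 110.1 CPM in the heterozygous eyes and to between 156.3 and 365.9 CPM in the eyes labelled knockout. CPM are read counts scaled to the TMM-adjusted library total. Whether the counted part of Egr1 lies outside the disruption is not given in the sources used here, and the Egr1-/- libraries are called labelled knockouts throughout. Tissue content also differed. The 8 lens markers summed to 422 CPM in labelled-knockout newborn replicate 1 whereas the other 3 newborns held 60560 to 68640 CPM. Of the defining markers, the lens gene Cryaa stood at 250 CPM in that newborn library, and the corneal keratin Krt12 at 2.63 CPM in labelled-knockout adult replicate 1 against 3865 and 6436 CPM in the other adults.

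Among the Fos genes Fosl2 had the highest level and among the Jun genes Jund, as judged by the authors' RPKM, which corrects for transcript length. Over the 15 libraries RPKM ran from 2.67 to 31.2 for Fosl2, 1.99 to 18.8 for Fos, 0.677 to 5.55 for Fosl1 and 0.226 to 4.34 for Fosb. It ran from 80.8 to 265 for Jund, 23.8 to 109 for Jun, 10.4 to 100.5 for Junb and 1.02 to 17.4 for Atf3. The lowest counts were 22 reads for Fosb, in a newborn wild type, and 35 for Fosl1, in the closed eye of E29, so that these genes were the least precisely measured.

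**Figure D1:**
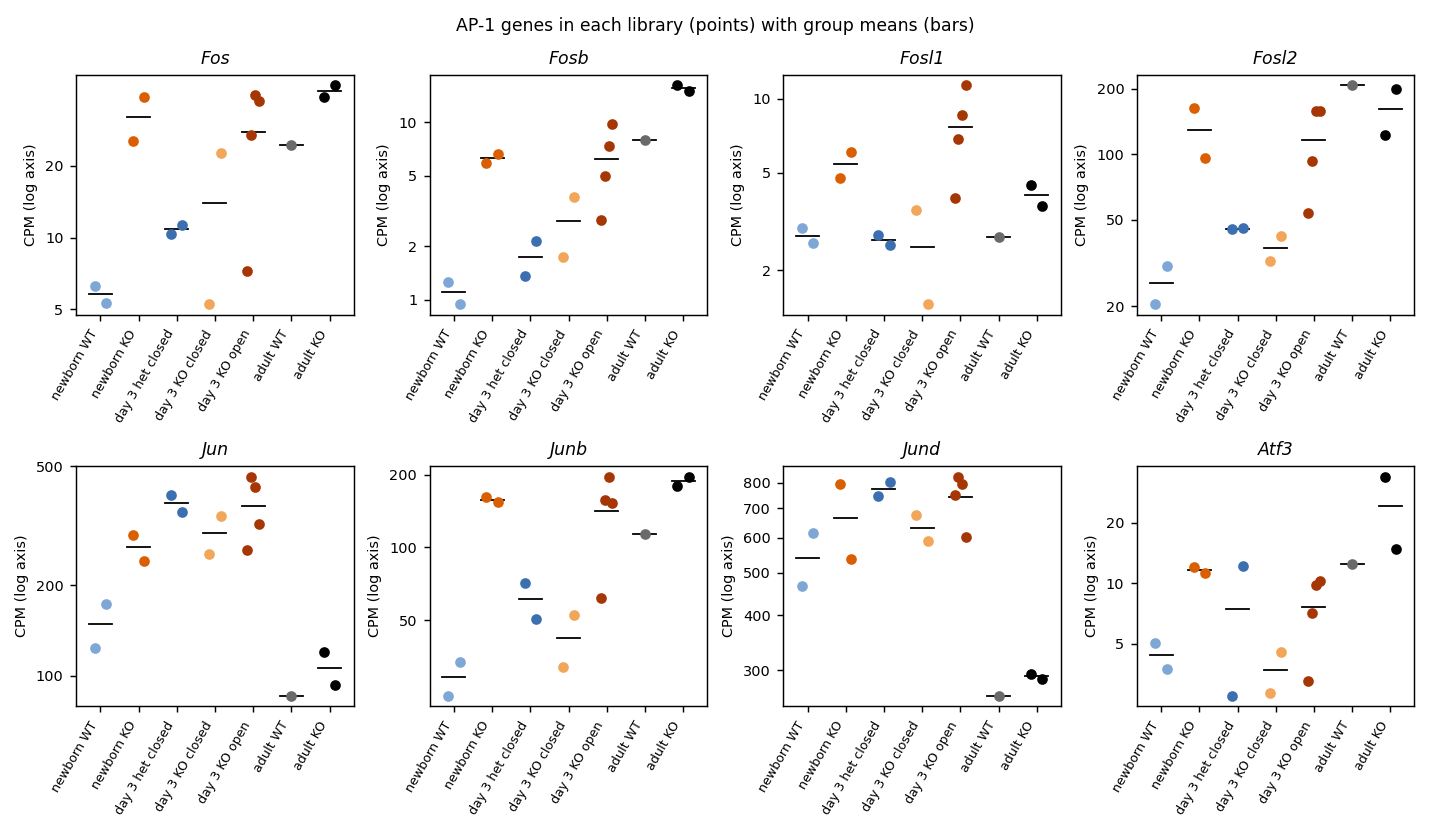
Each panel plots 1 AP-1 gene, with CPM on a log axis and the 7 groups along the horizontal axis. Points are libraries and bars are group means. Fosb and Fosl2 are lowest in the 2 newborn wild types, as are Fos and Junb except that the closed eye of E24 is as low, whereas Jun and Jund are lowest in the 3 adult libraries.

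The first comparison asks what differs between newborn wild-type and labelled-knockout eyes. All 4 Fos genes, Jun, Junb and Atf3 were higher in the labelled knockouts, by between 1.81-fold (Jun) and 5.73-fold (Fosb), and Jund was not called. With edgeR's quasi-likelihood test and a Benjamini-Hochberg adjusted p under 0.05 over 17592 genes, 7 of 8 members rose, where 14.6% of all genes rose and 24% were called in either direction. In 7 of 8 members both labelled knockouts lay above both wild types, which held for 33.3% of genes.

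Fos, the founding and fastest-responding member, stood at 6.25 and 5.31 CPM in the wild types and at 25.3 and 38.9 CPM in the labelled knockouts. The groups did not overlap, and the log2 difference was 2.48 ± 0.25 (SE; edgeR adjusted p = 0.00287). Fosb, whose protein resembles Fos, stood at 1.26 and 0.942 CPM against 5.93 and 6.63 CPM, a log2 difference of 2.52 ± 0.25 (edgeR adjusted p = 0.00275). Fosl2, whose protein is also called Fra-2, stood at 20.4 and 30.5 CPM against 164 and 95.9 CPM, and the difference was 2.35 ± 0.38 (edgeR adjusted p = 0.00645). Here the labelled knockouts were furthest apart from each other, and replicate 1 held the higher value, while in Fos it held the lower. Fosl1, or Fra-1, a member linked to migrating and wounded epithelium, changed least of the Fos genes. It stood at 2.96 and 2.57 CPM against 4.76 and 6.06 CPM (0.98 ± 0.29, edgeR adjusted p = 0.0471).

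Junb, a Jun protein that often restrains Jun, stood at 24.4 and 33.8 CPM in the wild types and at 161 and 154 CPM in the labelled knockouts. This difference of 2.44 ± 0.23 (edgeR adjusted p = 0.00262) was of the same size as those of Fos and Fosb. Jun stood at 123 and 174 CPM against 295.1 and 241 CPM, a difference of 0.86 ± 0.26 (edgeR adjusted p = 0.0497). Jund stood at 465 and 615 CPM against 794 and 535.5 CPM. Its groups overlapped, and its difference of 0.31 ± 0.31 did not pass (edgeR adjusted p = 0.497). Atf3 stood at 5.04 and 3.73 CPM against 12.05 and 11.3 CPM (1.43 ± 0.38, edgeR adjusted p = 0.036).

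These calls depended on single libraries. Without newborn wild-type replicate 1 none of the 17592 genes was called, members included, although the log2 differences stayed at 2.62 for Fos, 2.75 for Fosb, 2.11 for Fosl2 and 2.24 for Junb. Without wild-type replicate 2, 3 members were called (Fos, Fosb and Junb), and without labelled-knockout replicate 1 or 2 the called members were Fos, Fosb, Fosl2 and Junb. Without labelled-knockout replicate 1, Jund was at -0.0044. Fosl1 and Jun lost their call in 7 alternatives each and Atf3 in 5. With the authors' library totals in place of TMM the log2 difference of all genes had a median of 0.08 in place of -0.07, and 71.7% of the called genes were higher in place of 61%, while all 8 members kept their direction.

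**Figure D2:**
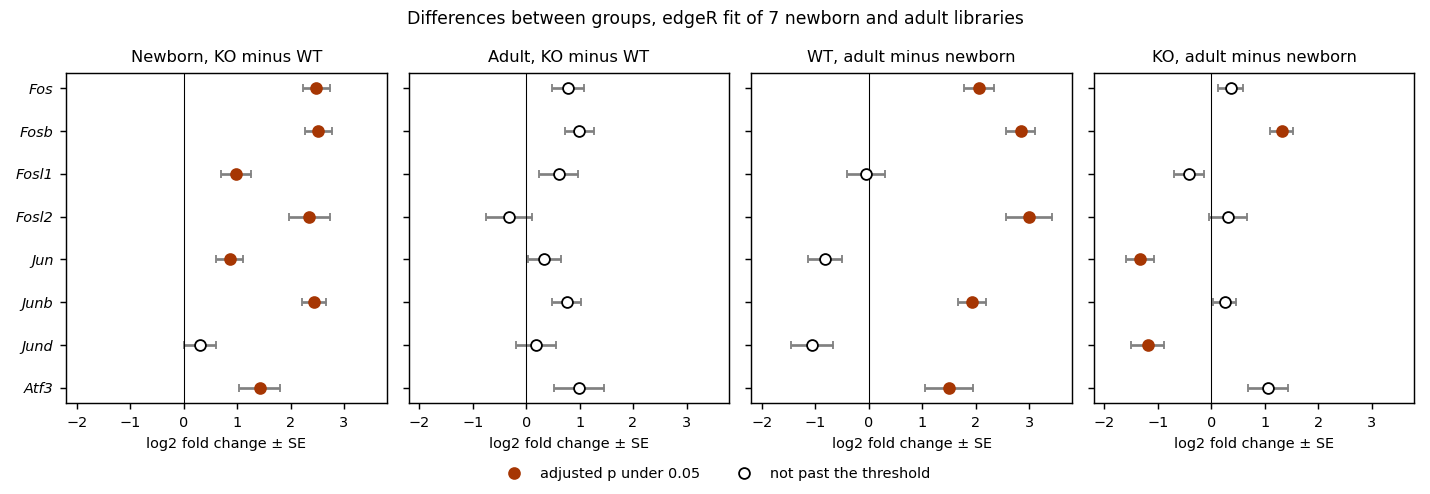
Log2 fold changes of the 8 genes with standard errors (bars) in 4 contrasts of the newborn and adult libraries, from 1 edgeR fit. Filled points passed an adjusted p of 0.05: 7 genes in newborn eyes, 0 in adult eyes, 5 for age in wild types and 3 for age in labelled knockouts.

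Beside these rises, markers of the surface tissues differed as well. The 8 basal epidermis markers, Krt5 and Krt14 among them, summed to 1100 and 1591 CPM in the wild types and to between 8448 and 9545 CPM in the labelled knockouts, and 8 of 8 rose. The 8 conjunctiva and cornea markers summed to 207 to 225 CPM against 2058 to 4050 CPM. Of 8 neutrophil markers 6 are in the tables under the symbols searched, older symbols not being tried. These 6 summed to 6.30 and 11.2 CPM against 76.5 and 77.6 CPM. The 8 rod markers went from 632 to 734 CPM down to 54.3 to 161 CPM, and 8 of 8 fell. Of the other lists, 6 of 8 conjunctiva and cornea, 7 of 8 endothelium, 5 of 8 fibroblast and stroma, 4 of 6 neutrophil, 3 of 8 skeletal muscle, 2 of 8 macrophage, 1 of 7 red blood cell and 1 of 7 cornified epidermis markers rose, 7 of 8 inner retina markers fell, and 0 of 8 lens markers were called. No marker of these lists was at 0 in the newborn groups. The part of these shifts in the AP-1 differences was not tested, and in bulk RNA a change in the number of cells of a type cannot be told apart from a change in RNA per cell.

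In adult eyes the question was the same, with 2 labelled knockouts and 1 wild type. No member passed, and none of 17592 genes did (0% called by edgeR). At an unadjusted p under 0.05 there were 506 genes, 3 of them members, and DESeq2 called 107 genes and 0 members. Fos stood at 24.5 CPM in the wild type and at 38.9 and 43.4 CPM in the labelled knockouts. For Fosb the values were 8.01 CPM against 16.2 and 15.05 CPM, and for Junb 113 CPM against 179 and 196 CPM. The log2 differences of these genes were 0.78 ± 0.29, 0.99 ± 0.28 and 0.76 ± 0.27. Fosl2 was the exception in direction, at 207 CPM against 122 and 199.5 CPM (-0.33 ± 0.43). Jun stood at 85.8 CPM against 119.7 and 92.8 CPM, Jund at 263 CPM against 294.9 and 287 CPM, and Fosl1 at 2.72 CPM against 4.43 and 3.66 CPM. Atf3, at 12.5 CPM against 33.9 and 14.8 CPM, showed the widest spread between labelled knockouts. Without labelled-knockout replicate 1 its difference was 0.28, and without replicate 2 it was 1.47. In 7 of 8 members both labelled knockouts were above the wild type, as in 25.7% of genes.

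A fit of both ages with 1 genotype effect called 2 of 17592 genes (0.0114%), Sprr1b and S100a9, and 0 of 8 members. At an unadjusted p under 0.05 there were 3668 genes, 6 of them members, and DESeq2 called 1486 genes and 5 members. Without labelled-knockout adult replicate 2 there was 1 called member. Leaving out the lone adult wild type gave 7, but that fit reduces to the newborn contrast and gives no effect over both ages. All 4 labelled knockouts lay above all 3 wild types for Fos, Fosl1 and Junb, a pattern met by 3.43% of genes. For Fosl1 the 4 values ran from 3.66 to 6.06 CPM and the 3 wild types from 2.57 to 2.96 CPM. Thus Fosl1 was the member whose wild types at both ages lay closest together.

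The genotype difference was lower in adults than in newborns for all 8 members by its point estimate, but no member passed the test of the difference of differences, in which edgeR called 2.8% of genes. The values lay close to the threshold for 4 members: Junb at -1.68 ± 0.33 (edgeR adjusted p = 0.0502), Fosl2 at -2.68 ± 0.56 (edgeR adjusted p = 0.0549), Fos at -1.70 ± 0.36 (edgeR adjusted p = 0.0573) and Fosb at -1.52 ± 0.35 (edgeR adjusted p = 0.0679). The other 4 lay between -0.52 and -0.13. The 4 near the threshold were the members with an unadjusted p under 0.05, among 3638 such genes of 17592. DESeq2 called these 4 among 2131 genes. Alternatives called from 0 to 4 members. Without labelled-knockout adult replicate 1, adult replicate 2 or newborn replicate 2, Fos, Fosl2 and Junb were called in each case, and without newborn replicate 1 Fos alone was called. With the authors' library totals 21.8% of the called genes were higher, against 35.6%. For Jund and Atf3, with differences of -0.13 and -0.43, the sign turned when single libraries were left out.

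Between newborn and adult libraries the members differed in opposite directions. The ages may be separate experiments, so age cannot be told apart from experiment in these contrasts. In wild types the adult library was above both newborn ones for Fos, Fosb, Fosl2, Junb and Atf3 and below both for Jun and Jund (42.8% and 42.9% of genes). The edgeR test called 5 of 8 members, where 32.6% of all genes were called. All 5 rose, as 18% of genes did. These were Fosl2 (7.97-fold, log2 difference 2.99 ± 0.43, edgeR adjusted p = 0.00247), Fosb (7.16-fold, 2.84 ± 0.28, edgeR adjusted p = 0.000646), Fos (4.17-fold, 2.06 ± 0.28, edgeR adjusted p = 0.00204), Junb (3.82-fold, 1.93 ± 0.25, edgeR adjusted p = 0.00179) and Atf3 (2.82-fold, 1.49 ± 0.45, edgeR adjusted p = 0.0404). Jun (-0.82 ± 0.32, edgeR adjusted p = 0.0942) and Jund (-1.07 ± 0.39, edgeR adjusted p = 0.0775) did not pass, though DESeq2 called both. Atf3 lost its call without either newborn wild type or without labelled-knockout newborn replicate 2. Fosl1 stood at 2.72 CPM in the adult and at 2.96 and 2.57 CPM in the newborns, and the sign of its difference (-0.05) depended on the scaling: it was 0.07 with the authors' library totals.

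In labelled knockouts the age contrast called 3 of 8 members, where 39.7% of all genes were called, a share close to that of the members. Of these, 1 rose (19.3% of genes) and 2 fell (20.4%). Fosb rose 2.49-fold (1.31 ± 0.22, edgeR adjusted p = 0.00333), while Jun fell by 1.34 (SE 0.26) and Jund fell by 1.19 (SE 0.31) on the log2 scale (edgeR adjusted p = 0.0063 and 0.0205). Jund lost its call without either adult replicate or without newborn replicate 1. Fosl2 stood at 164 and 95.9 CPM in newborns and at 122 and 199.5 CPM in adults, so its groups overlapped (0.31 ± 0.36). Fos (0.36 ± 0.23) and Junb (0.25 ± 0.21) did not pass. Without newborn replicate 2 Fos passed, at 0.72, and without newborn replicate 1 it was at 0.079. Atf3 was at 1.06 ± 0.37 (edgeR adjusted p = 0.0566), and it passed without adult replicate 2, at 1.56, while without adult replicate 1 it was at 0.35. The wild-type and the labelled-knockout age contrasts were set against each other in the difference of differences above. Beside Jun and Jund, the summed fibroblast and stroma markers went from 4851 to 23960 CPM in the 4 newborns to 1595 to 2376 CPM in the 3 adults (3 of 8 fell and 1 rose in wild types, 7 of 8 fell in labelled knockouts). The endothelium markers went from 473 to 938 CPM to 219 to 432 CPM (in wild types 0 of 8 called by edgeR, 2 at an unadjusted p under 0.05 and 2 by DESeq2, while 7 of 8 fell in labelled knockouts) and the red blood cell markers from 926 to 3045 CPM to 20.2 to 85.8 CPM (5 of 7 and 6 of 7 fell), while the 8 rod markers went from at most 734 CPM to at least 19460 CPM. Beside the members that rose in wild types, the basal epidermis markers went from 1100 and 1591 CPM to 10220 CPM (7 of 8 rose and 0 fell). The conjunctiva and cornea markers went from 207 and 225 CPM to 13860 CPM (7 of 8 rose and 0 fell). In labelled knockouts the basal epidermis sums overlapped between the ages (1 of 8 rose and 2 fell), and 6 of 8 conjunctiva and cornea markers rose and 0 fell. The part of all these markers in the age differences was not tested.

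At day 3 the comparison was between open and closed eyelids, fitted with the mouse as a block, so that E24 and E29, each with 1 open and 1 closed eye, alone inform it. Every member was higher in the open eye of both mice, which 28.7% of the 15754 genes tested shared. None of the 8 passed (edgeR called 0.514% of genes). At an unadjusted p under 0.05 there were 985 genes, 2 of them members, Fosl2 and Junb. DESeq2 called 369 genes, both of these members among them.

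Fosl2 gave the steadiest contrast. It stood at 53.8 CPM in the open and 32.1 CPM in the closed eye of E24, and at 93.2 and 42.2 CPM in those of E29. Both eyes of E32 (158 and 158 CPM, open) and both of E28 (45.3 and 45.5 CPM, closed) were nearly equal, the larger log2 difference between eyes of the same state being 0.0072. The open eye exceeded the closed one 1.68-fold in E24 and 2.21-fold in E29, and the fitted difference was 0.96 ± 0.16 (edgeR adjusted p = 0.066). It passed without E32 (edgeR adjusted p = 0.0419). Junb stood at 61.9 and 32.1 CPM in the open and the closed eye of E24 and at 157 and 52.5 CPM in those of E29. In E32 it stood at 196 and 153 CPM and in E28 at 71.6 and 50.5 CPM, so that eyes of the same state differed by up to 0.50 on the log2 scale. The fitted difference was 1.29 ± 0.25 (edgeR adjusted p = 0.122), and it passed without E32 (edgeR adjusted p = 0.047).

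In Fos the mice differed more than the eyelid states. The open and closed eyes held 7.27 and 5.25 CPM in E24 and 26.8 and 22.7 CPM in E29. The level in E29 was thus 4.32-fold that in E24 in the closed eyes and 3.68-fold in the open ones, while open exceeded closed by 1.38-fold and 1.18-fold within a mouse (0.37 ± 0.19, edgeR adjusted p = 0.999). The eyes of E32 held 39.7 and 37.5 CPM and those of E28 10.3 and 11.3 CPM. Fosb was also higher in E29 than in E24 in either state, with 2.81 and 1.75 CPM in E24 and 4.98 and 3.77 CPM in E29, and stood at 7.34 and 9.85 CPM in E32 and at 1.36 and 2.14 CPM in E28. Its eyes of the same state differed by up to 0.65 on the log2 scale. The lowest day 3 value was in a closed eye of E24 for Fos and of E28 for Fosb.

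In Fosl1 the difference between states exceeded that between eyes of the same state (at most 0.40 on the log2 scale) in 1 of the 2 mice. It stood at 6.83 CPM in the open and 1.45 CPM in the closed eye of E29, a 4.70-fold ratio, and at 3.94 and 3.50 CPM in E24, a 1.12-fold ratio. The 1.45 CPM of the closed E29 eye was its lowest value in the 15 libraries, and the 11.3 CPM of E32's left eye, which was open, its highest. All 4 open eyes lay above all 4 closed ones for Fosl1 and Fosl2, and for 6.56% of genes. Jun (262 and 255 CPM in E24, 461 and 341 CPM in E29) and Jund (748 and 674 CPM, 825 and 591 CPM) differed between states by no more than the eyes of the same state did in at least 1 mouse. Atf3 stood at 3.26 and 2.85 CPM in E24 and at 7.09 and 4.56 CPM in E29, and its 2 closed eyes of E28 held 2.76 and 12.15 CPM, the widest gap between eyes of 1 state among the members.

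**Figure D3:**
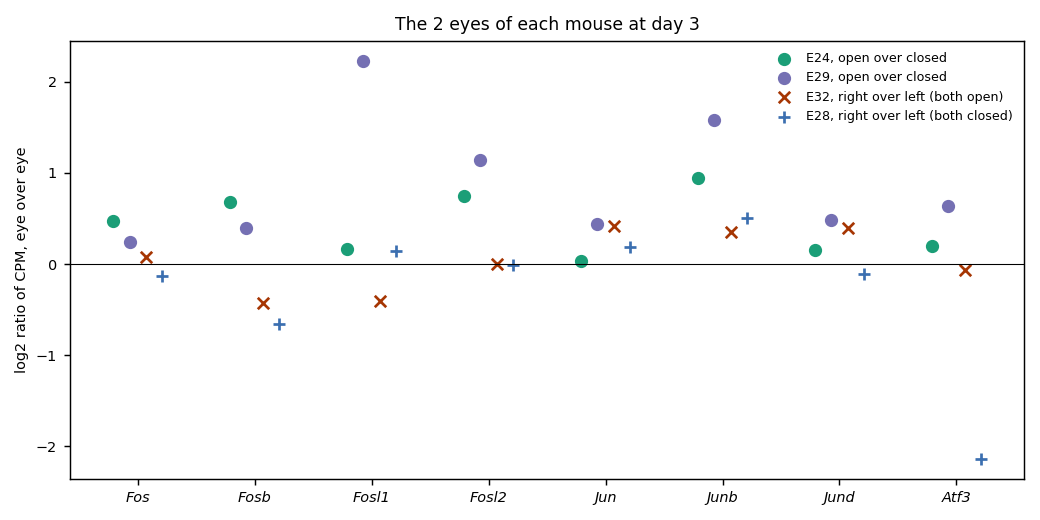
Log2 ratio of CPM between the 2 eyes of each day 3 mouse, by gene. Circles are open over closed (E24 and E29), a saltire and a plus are right over left for the mice whose eyes had the same state (E32, E28). Both circles of Fos, Fosl2 and Junb lie further from 0 than either same-state ratio of that gene.

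The basal epidermis markers differed in the same eyes. They summed to 1273 to 2591 CPM in the 4 closed eyes and to 4063 to 11680 CPM in the 4 open ones, and 3 of 8 rose. The conjunctiva and cornea markers summed to 245 to 547 CPM in closed and to 1074 to 2739 CPM in open eyes (2 of 8 rose and 1 fell), and the macrophage markers to 138 to 207 CPM and 254 to 359 CPM (0 of 8 called by edgeR, 3 at an unadjusted p under 0.05 and 2 by DESeq2). The neutrophil markers, at 7.19 to 26.7 CPM in closed and 19.5 to 90.9 CPM in open eyes, overlapped between the states (0 of 6 called by edgeR, 1 at an unadjusted p under 0.05 and 0 by DESeq2). The part of these markers in the differences of Fosl2 and Junb was not tested.

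For labelled-knockout against heterozygous mice at day 3, the reads of both eyes of a mouse were summed, giving 3 mice against 1. Both heterozygous eyes were closed, whereas each labelled-knockout mouse had at least 1 open eye. Genotype therefore cannot be told apart from eyelid state in this contrast. None of 16453 genes passed (0% called by edgeR). At an unadjusted p under 0.05 there were 273 genes, 0 of them members, and DESeq2 called 96 genes and 0 members. The log2 differences were 1.62 ± 0.93 for Fosb, 1.20 ± 0.79 for Fosl1, 1.17 ± 1.05 for Fos, 1.04 ± 0.82 for Fosl2 and 0.88 ± 0.78 for Junb. Those of Jun, Jund and Atf3 lay between -0.09 and -0.08. With closed eyes alone, Fosl1 (-0.09), Fosl2 (-0.26) and Junb (-0.52) changed sign: the closed labelled-knockout eyes held 32.1 and 42.2 CPM of Fosl2, below the 45.3 and 45.5 CPM of the heterozygous eyes, which were closed as well.

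Ordered over the 7 groups, the members fell into 2 patterns. Fos, Fosb, Junb and Atf3 had their highest mean in labelled-knockout adults (41.2, 15.6, 187 and 24.4 CPM) and Fosl2 in the adult wild type (207 CPM), while Fos, Fosb, Fosl2 and Junb had their lowest in newborn wild types (5.78, 1.10, 25.4 and 29.1 CPM). Jun and Jund were highest in the heterozygous day 3 eyes (376 and 774 CPM) and lowest in the adult wild type (85.8 and 263 CPM). Fosl1 was highest in open day 3 eyes, with a mean of 7.66 ± 3.10 CPM (SD, 4 eyes of 3 mice), followed by newborn labelled knockouts at 5.41 ± 0.92 CPM (SD, n = 2), which the open eyes overlapped. Its lowest 4 groups, between 2.48 and 2.76 CPM on average, were newborn and adult wild types and both kinds of closed eye, and each overlapped the next. For Jund the 5 newborn and day 3 groups ran into each other between 465 and 825 CPM. The 3 ages may be separate experiments, and levels at day 3 were not tested against the other ages.

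The make-up of each family moved with these levels. The Fos genes together came to 7.57 RPKM in newborn wild types and 39.5 RPKM in newborn labelled knockouts, to 11.4 and 12.1 RPKM in the heterozygous and the labelled-knockout closed eyes and 31.7 RPKM in the open ones, and to 44.9 and 51.0 RPKM in wild-type and labelled-knockout adults. Fosl2 made up between 44.2% and 69.6% of this on average in every group. The closed eye of E29 was an exception, with 54.5% Fos and 36.2% Fosl2, and so was newborn labelled-knockout replicate 2, with 46.1% Fos and 40.7% Fosl2. Within the Jun family the share of Junb was 6.42% in newborn wild types and 22.01% in newborn labelled knockouts. It was 8.02% and 6.94% in the closed heterozygous and labelled-knockout eyes, 17.1% in open eyes, 34.6% in the adult wild type and 43.6% in labelled-knockout adults. Jund led the Jun family on average in every group except the last, where it held 42.4%. There the replicates disagreed: Jund held 42.8% and Junb 41.5% in replicate 1, and Jund 42.1% and Junb 45.7% in replicate 2.

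**Figure D4:**
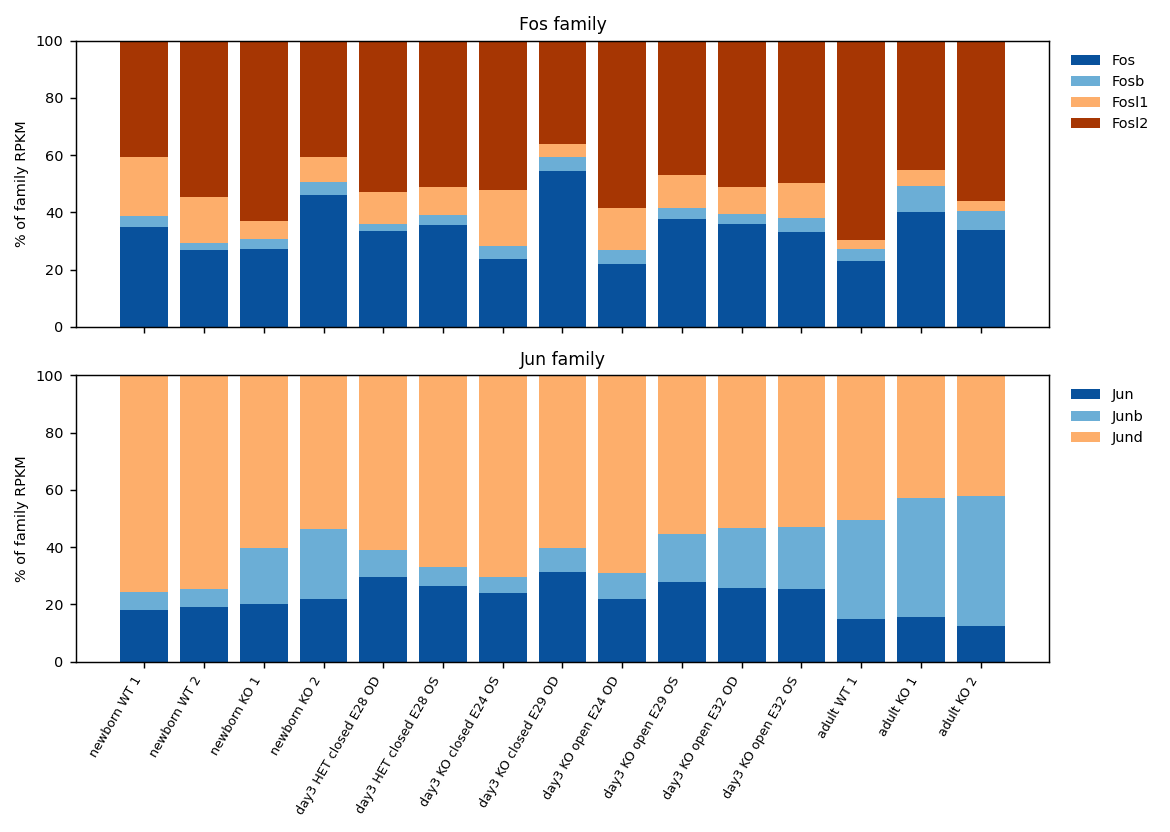
Stacked bars give the share of each gene in the summed RPKM of its family, in percent, for each of the 15 libraries. In the Jun family the Junb band widens from 6.42% in newborn wild types to 43.6% in labelled-knockout adults, and in the Fos family Fosl2 holds the widest band in most libraries.

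Across the 15 libraries, which share groups, ages and tissue content, the members formed the same 2 sets. Pearson's r of log2(CPM + 1) was between 0.864 and 0.931 for all pairs of Fos, Fosb, Fosl2 and Junb, and between 0.707 and 0.832 for Atf3 with each of them. Jun and Jund had an r of 0.913 with each other and of at most 0.0308 with any of those 5 genes. Fosl1 lay between the sets, with values from 0.196 to 0.649. The genes closest to each member, among 12739 with a mean of at least 1 RPKM, were Cyb561 (r = 0.95), Krtcap3 and Klf5 for Fos, Tmbim1 (0.968), Lyn and Ceacam1 for Fosb, Dok3 (0.935), Il17ra and Mmp9 for Fosl1 and Ttc7 (0.985), Rab3d and Capn1 for Fosl2. They were Carm1 (0.991), Arhgdia and Limd1 for Jun, Bcl3 (0.974), Rnh1 and Krt7 for Junb, Ier5l (0.984), Zfp622 and Gas1 for Jund, and Ly6c1 (0.932), Slc41a2 and B3gnt2 for Atf3. Egr1 was not among them: its r ran from 0.283 with Atf3 to 0.657 with Fosl1, where it ranked 412 of the 12739.

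Among marker sums, basal epidermis had an r of 0.965 with Fosl2, 0.946 with Junb, 0.856 with Fosb and 0.854 with Fos, against -0.07 with Jun. The adult wild type departed from this for Junb, with a marker sum of 10220 CPM but 113 CPM of Junb, below the 7 other libraries with sums of at least 6618 CPM, which held 153 to 196 CPM of Junb. Other lists had high values too. Neutrophil markers had an r of 0.949 with Fosb, 0.89 with Fosl2, 0.888 with Fos and 0.857 with Junb, and conjunctiva and cornea markers of 0.934 with Fosl2 and 0.907 with Fosb. With Jun and Jund, endothelium markers had an r of 0.89 and 0.882, red blood cell markers of 0.879 and 0.88, and fibroblast and stroma markers of 0.865 and 0.863.

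**Figure D5:**
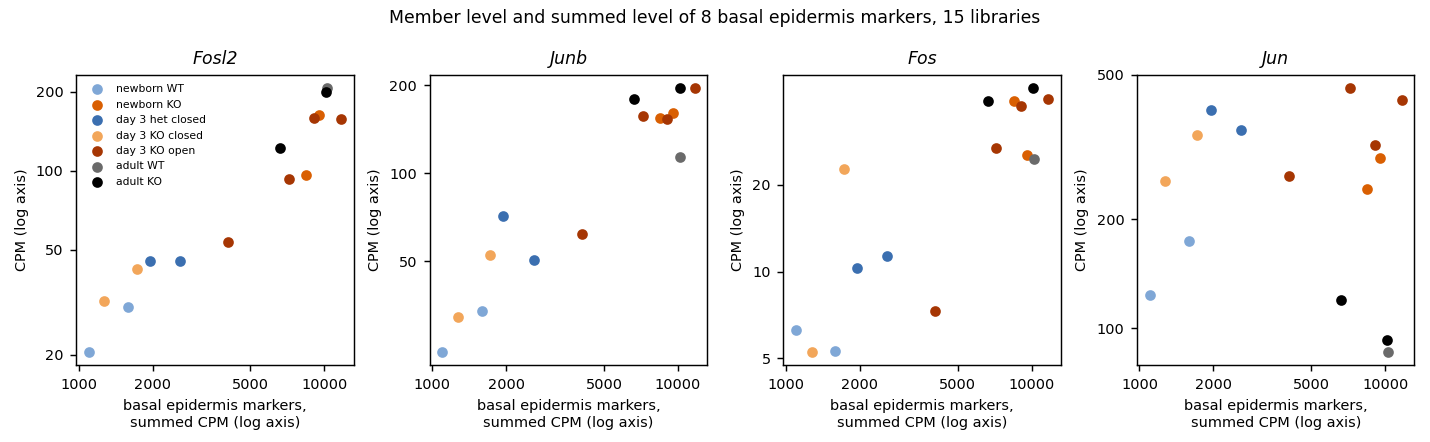
Level of Fosl2, Junb, Fos and Jun (vertical axes, CPM, log scale) against the summed CPM of 8 basal epidermis markers (horizontal axes, log scale) in 15 libraries, coloured by group. Fosl2 runs along the marker sum from 20.4 to 207 CPM, whereas Jun shows no such course and is lowest in the 3 adults.

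The genes around AP-1 were described from 5 lists, whose newborn counts stand beside 14.6% of all genes that rose and 24% called. In newborn eyes 9 of 26 bZIP genes known to pair with or resemble AP-1 proteins rose and 1 fell (38.5% called, median log2 difference 0.70, against -0.07 over all genes). Among the rises with the smallest p were Cebpb (2.08 ± 0.28), an inflammatory and epidermal factor, and the small Maf genes Maff (1.18 ± 0.16) and Mafk (1.13 ± 0.18). In adults and in open against closed eyes edgeR called none of the 26, with 1 and 3 at an unadjusted p under 0.05.

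Upstream kinases and cofactors moved both ways. In newborn eyes 12 of 33 rose and 3 fell (45.5% called, median 0.19). Rps6ka1, a kinase activated by ERK, was at 1.56 ± 0.19, Elk3, a partner of serum response factor, at 1.63 ± 0.20, another such cofactor, Mkl2, at 1.17 ± 0.17 and the p38 kinase Mapk13 at 2.08 ± 0.31. Rps6ka1 was the 1 gene of the list whose genotype difference was lower in adults by the test (-1.57 ± 0.29, edgeR adjusted p = 0.0438).

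Of genes known as AP-1 targets, 36 of 40 were tested in newborn eyes, where 30 rose and 0 fell (83.3% called), with a median of 3.16. The list holds many epidermal and wound genes, and its counts stand beside the rise of basal epidermis markers given above. Lama3, a laminin chain of the basement membrane under basal keratinocytes, was at 3.604 ± 0.276. Sprr1b, a precursor of the cornified envelope, was at 7.33 ± 0.61, and Tgm1, the enzyme that crosslinks that envelope, at 2.42 ± 0.20. In open against closed eyes 12 of 36 rose and 0 fell (33.3% called, against 0.514% of all genes, and a median of 2.89 against 0.02). The wound keratins Krt6b (4.16 ± 0.17), Krt6a (3.67 ± 0.21) and Krt16 (4.67 ± 0.29) and Sprr1a (8.13 ± 0.41) had the smallest p, and reads of Krt6a and Krt6b may have been shared between these close copies. In adults 0 of 36 were called, with 12 at an unadjusted p under 0.05 and 7 called by DESeq2. The genotype difference was lower in adults for 7 of 36, among them Lama3 (-4.86 ± 0.39), Krt6b (-3.94 ± 0.53) and Egfr (-2.41 ± 0.36).

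Of 32 other immediate-early genes 16 rose and 3 fell in newborn eyes (59.4% called, median 0.77). Nfkbiz, a nuclear regulator of NF-kappaB targets, was at 2.70 ± 0.18, Ier3 at 1.91 ± 0.17, Myc at 1.78 ± 0.17 and Zfp36, which destabilises cytokine messages, at 2.18 ± 0.22. These 4 genes were also the ones whose genotype difference was lower in adults (Nfkbiz at -2.57 ± 0.26, Ier3 at -1.61 ± 0.25, Zfp36 at -1.80 ± 0.33, Myc at -1.39 ± 0.26). None of the 32 was called by edgeR in adults or in open against closed eyes, with 4 at an unadjusted p under 0.05 in each. Of 15 stress genes known from dissected or handled tissue 4 rose and 0 fell in newborn eyes (26.7% called, median 0.58). Over all genes 14.6% rose and 24% were called in either direction. At an unadjusted p under 0.05 there were 9 of the 15, and DESeq2 called 7 (over all 17592 genes 6496 and 5270). The 4 that rose were the heat shock genes Hspa1b (2.76 ± 0.30) and Hspa1a (2.64 ± 0.29), Cdkn1a (1.28 ± 0.26) and Trib3 (1.40 ± 0.33). How the eyes were handled was not measured, and its part in the AP-1 levels was not tested. Without newborn wild-type replicate 1 the newborn counts of all 5 lists were 0, and without mouse E24 or E29 the open-eye count of the target list was 0 or 1.

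Between newborn and adult libraries the lists differed in both directions, where 32.6% of all genes were called in wild types and 39.7% in labelled knockouts. In wild types 12 of 33 kinases and cofactors rose and 3 fell (45.5% called). Of the immediate-early genes 10 of 32 rose and 4 fell (43.8% called), with Nfkbiz at 4.04 ± 0.20, Ier3 at 2.21 ± 0.19, Zfp36 at 2.38 ± 0.25 and the kinase gene Sgk1 at 3.55 ± 0.34. Of the targets 13 rose and 5 fell in wild types (50% called), and 6 rose and 13 fell in labelled knockouts (52.8% called). Ereg, an EGF receptor ligand, was at 4.43 ± 0.36 in wild types, and Itga5, a fibronectin receptor chain, at -2.95 ± 0.34 in labelled knockouts. Of the bZIP genes 6 rose and 2 fell in wild types (30.8% called, near the share of all genes), among the former Jdp2, a Jun-binding repressor (2.44 ± 0.42). In labelled knockouts 4 rose and 7 fell (42.3% called, also near that share), with Nrl, the rod photoreceptor factor, at 4.02 ± 0.67 and Mafa, a lens factor, at -2.53 ± 0.35.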

How the data were processed

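Poly(A) RNA libraries of eyes with eyelids were sequenced on an Illumina HiSeq, per the labels' protocols, which mention fixation in 1 place and RNAlater in another without saying which eyes were fixed. The submitters' processing notes name CASAVA 1.8, Bowtie 0.12.9, TopHat2 2.0.11, SAMtools and build mm8, and the counting tool and annotation are not given in the sources used here. The tables deposited by the authors hold raw read counts for 24373 transcripts and RPKM, scaled by the authors to exon length and to a library total that was 1.32 times the summed counts in newborn wild-type replicate 1 and 0.89 to 1.01 times elsewhere. The library method keeps no strand, so antisense reads cannot be told apart.

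Where a symbol had several transcripts, that with most reads was used. Counts were tested with edgeR 4.0.16 in R 4.3.3 (TMM, filterByExpr, quasi-likelihood test, Benjamini-Hochberg threshold 0.05), and SE is the log2 difference over the square root of F. All 7 newborn and adult libraries entered a fit with group means, in which the lone adult wild type, like the lone heterozygous mouse at day 3, is assumed to vary like the others. A second fit had age and genotype as terms. The members, lists, tests and alternatives (DESeq2 1.42.0, scalings, filters, left-out libraries, a replicate block) were chosen with earlier results of these data known. Named are the members, Egr1, up to 4 genes a list with the smallest p among those called (in the age contrasts fewer) and the 3 genes most like each member. Some that met this rule are not reported. Cryaa, Krt12, Krt5, Krt14 and S100a9 were named after their values were seen. Scripts were tested on simulated counts. No pair of replicates agreed within sampling noise (chi-square per degree of freedom 12.4 to 256).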

Additional observations from a re-analysis of the deposited data

How the results depend on the processing

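The number of AP-1 genes called in newborn eyes was 7, 4 with a mean of at least 5 RPKM, under which Fosb and Fosl1 were not tested, and 0 to 7 with 1 library left out. With both ages in 1 fit it was 0, 5 by DESeq2 and 0 to 7 with 1 library left out, where 7 comes from leaving out the lone adult wild type, which leaves only the newborn contrast, and the others gave 0 or 1. For the difference of differences it was 0. It became 1 with size factors, without lens genes, with a mean of at least 5 RPKM or with all transcripts, 2 with the authors' totals, 3 with no filter, 4 by DESeq2, and 0 to 3 with 1 library left out. For open against closed eyes it was 0, 1 with a mean of at least 5 RPKM, 2 by DESeq2, 2 with E24 and E29 only, and 0 to 2 with 1 mouse left out. It stayed 0 for adults under each of 15 alternatives. The cause of these changes was not tested.

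Some signs turned. With 1 library left out, Jund ran from -0.0044 to 0.59 in newborn eyes and from -0.42 to 0.18 in the difference of differences, and Atf3 from -1.14 to 0.021 there. In the age contrast of labelled knockouts Fosl2 ran from -0.060 to 0.74 and Egr1 from -0.39 to 0.092. In that of wild types Fosl1 ran from -0.086 to 0.094, and was 0.065 with the authors' totals. For labelled knockouts against the heterozygous mouse, closed eyes alone gave -0.088 for Fosl1, -0.26 for Fosl2 and -0.52 for Junb. With 1 mouse left out, Jun ran from -0.20 to 0.090 and Atf3 from -0.61 to 0.26.

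Counts over all genes moved too. Without newborn wild-type replicate 1 or 2, the newborn count went from 4226 to 0 or 728, and without labelled-knockout replicate 1 to 2089. With 1 library left out adult calls ran from 0 to 205, those of both ages, the lone adult wild type kept, from 0 to 147, and those of the difference of differences from 0 to 1613, or 2131 by DESeq2. DESeq2 called 369 genes in open against closed eyes in place of 81, and E24 and E29 alone gave 210.

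Nothing in the labels says that the replicate numbers pair libraries. Deviations of same-numbered newborn wild types and labelled knockouts had a correlation of 0.0657 over 17592 genes, and those of newborn and adult labelled knockouts of 0.124. The labelled-knockout newborns also differed in lens markers (422 against 60560 CPM), so these values cannot settle whether libraries were paired. A replicate block gave 5 called members in newborn eyes, 0 in adults, in both ages and in the difference of differences, 4 for age in labelled knockouts and 5 for age in wild types. Over all genes it gave 1 call for the difference of differences and 1 for both ages. Day 3 without the mouse as a replicate block gave 0 called members. With 2 libraries or fewer in most groups, and as few as 22 reads of Fosb, small differences are not resolved. Even differences of several standard errors did not always pass, such as that of Junb in the difference of differences (-1.68 ± 0.33, edgeR adjusted p = 0.0502).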
